A study of Homo sapiens with 12 samples.

Results

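The 6 mature arms of the miR-28, miR-708 and miR-151a hairpins were examined in small RNA libraries of human acute myeloid leukaemia (AML) cells with and without MPC1. The members were chosen by name, as hsa-miR-28-5p, hsa-miR-28-3p, hsa-miR-708-5p, hsa-miR-708-3p, hsa-miR-151a-5p and hsa-miR-151a-3p, and they were chosen with knockout values of these libraries in view, since miR-28-3p in MV4-11 and miR-708-5p in Molm-14 had been singled out in the knockout comparison. They are 6 of the 1204 miRNAs counted, and all 6 were among the 659 that passed a filter on low counts.

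The libraries came from MV4-11 and Molm-14 cells, lines of human AML that both carry an internal tandem duplication of FLT3, and there were 12 in all, 3 in each of 4 groups. In each line, MPC1 KO cells had MPC1, a subunit of the carrier that brings pyruvate into mitochondria, deleted by CRISPR/Cas9 with a lentiCRISPRv2 construct that held a GFP marker and 1 guide, and EV cells carried the Empty Vector. Nothing in the labels or methods says whether the knockout cells were a clone or a pool, or whether the replicates of a group were separate cultures, so the p-values below measure only the spread between these libraries, which may be technical. MPC1 mRNA is not read by small RNA libraries, so the deletion was not checked here. The authors reported fewer MPC1 transcripts by qPCR in the knockout cells of both lines.

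A microRNA hairpin is cut into a 5p and a 3p arm, and the arm that is loaded into Argonaute directs it to messenger RNAs mainly through its seed, bases 2 to 8. miR-28 restrains B-cell receptor signalling, miR-708 is induced with its host gene by the transcription factor CHOP under endoplasmic reticulum stress, and miR-151a has been studied with its host PTK2, the focal adhesion kinase, in cell migration. miRNA databases group the 3 hairpins by likeness of sequence, and miR-28-5p and miR-708-5p have the same seed.

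The mature sequences of 3 arms are shown, miR-708-5p for its seed, and miR-28-3p and miR-708-3p because they share stretches of bases. They are RefSeq sequences on GRCh38.p14, written 5′ to 3′ with the seed in capitals, and hsa-miR-3139 is added because it holds the seed of miR-708-5p. Of the 6 arms, 3 had an entry in the RefSeq table used here, and hsa-miR-28-5p, hsa-miR-151a-5p and hsa-miR-151a-3p are named only.
hsa-miR-708-5p: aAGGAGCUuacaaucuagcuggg
hsa-miR-3139: uAGGAGCUcaacagaugccuguu
hsa-miR-28-3p: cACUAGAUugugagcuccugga
hsa-miR-708-3p: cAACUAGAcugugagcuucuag

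The seed of hsa-miR-708-5p stood at bases 2 to 8 of 2 of the 2370 mature entries, itself and hsa-miR-3139. hsa-miR-28-5p had no entry, so that count could not include it. The seeds of hsa-miR-28-3p and hsa-miR-708-3p were each held by 1 of the 2370 entries. The 3p arms nevertheless share sequence in another register. The run ACUAGA lies at bases 2 to 7 of miR-28-3p and at bases 3 to 8 of miR-708-3p, a shift of 1 base, and the run UGUGAGCU, 8 bases long, lies at bases 9 to 16 and 10 to 17. The mature hsa-miR-28-3p lies at chr3:188688834-188688855 on the plus strand, and hsa-miR-708-5p and hsa-miR-708-3p lie at chr11:79402077-79402099 and chr11:79402032-79402053 on the minus strand, while hsa-miR-3139 lies at chr4:143343469-143343491 on the plus strand.

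All 3 hairpins are intronic and on the strand of their host gene in GENCODE release 44. MIR28 (chr3:188688781-188688866) lies in an intron of LPP, a cell adhesion protein gene. MIR708 (chr11:79402022-79402109) lies in an intron of TENM4, which encodes a teneurin of the cell surface. MIR151A lies in an intron of PTK2. The only other annotated hairpin within 50 kb of the 3 was MIR5579, 20060 bp from MIR708, which was not analysed here. Expression of the hosts was not measured in these libraries.

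Total counts were between 3870104 and 8683456 per library. Every pair of replicates differed by more than sampling noise (chi-square per degree of freedom from 11.4 to 153.6), so none was a copy. Of the 4 blood-lineage miRNAs looked at, hsa-miR-142-3p had group means from 20357 to 47054 CPM (counts scaled to the library total) and hsa-miR-223-3p, the lowest, from 2733 to 3251 CPM, while hsa-miR-124-3p, hsa-miR-205-5p and hsa-miR-208b-3p, of neural, epithelial and muscle tissue, had group means of at most 0.903 CPM. Of the defining miRNAs of other tissues looked at, hsa-miR-122-5p of liver was the highest, at group means from 5.49 to 8.02 CPM, and its part in the results below was not tested. 1 library touched several results. Replicate 1 of Molm-14 EV had the highest hsa-miR-28-5p and hsa-miR-151a-5p of all 12 libraries, and its effect is given beside the results it moves most. CPM values here are scaled by TMM, a correction for differences in composition between libraries. They are shares of a library, so lower levels per cell and fewer cells of a kind cannot be told apart.

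Together the 6 arms made up 0.439% to 0.659% of all counts in a library. miR-151a gave most of these counts, between 63.1% and 79.1%, and miR-28 gave between 20.8% and 36.8%. miR-708 gave between 0.0442% in MV4-11 MPC1 KO and 0.385% in Molm-14 MPC1 KO. Mature miRNAs differ little in length, so CPM of different arms were set side by side without a correction for length. How well each sequence is ligated and amplified in library preparation was not measured, so the order is one of counts and not of molecules per cell. In that order hsa-miR-151a-3p came first in all 4 groups (rank 36 to 39 of 659 by mean CPM), followed by hsa-miR-28-3p (rank 56 to 69) and hsa-miR-28-5p (rank 129 to 153), with no overlap of library values between these neighbours. The lower 3 arms changed places. In MV4-11 EV hsa-miR-151a-5p (4.98 to 5.84 CPM) and hsa-miR-708-5p (3.11 to 4.98 CPM) were not separated beyond their spread, and in Molm-14 MPC1 KO hsa-miR-708-5p (16.0 to 16.5 CPM) lay above hsa-miR-151a-5p (7.70 to 10.1 CPM). hsa-miR-708-3p had the lowest mean of the 6 in every group.

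**Figure D1:**
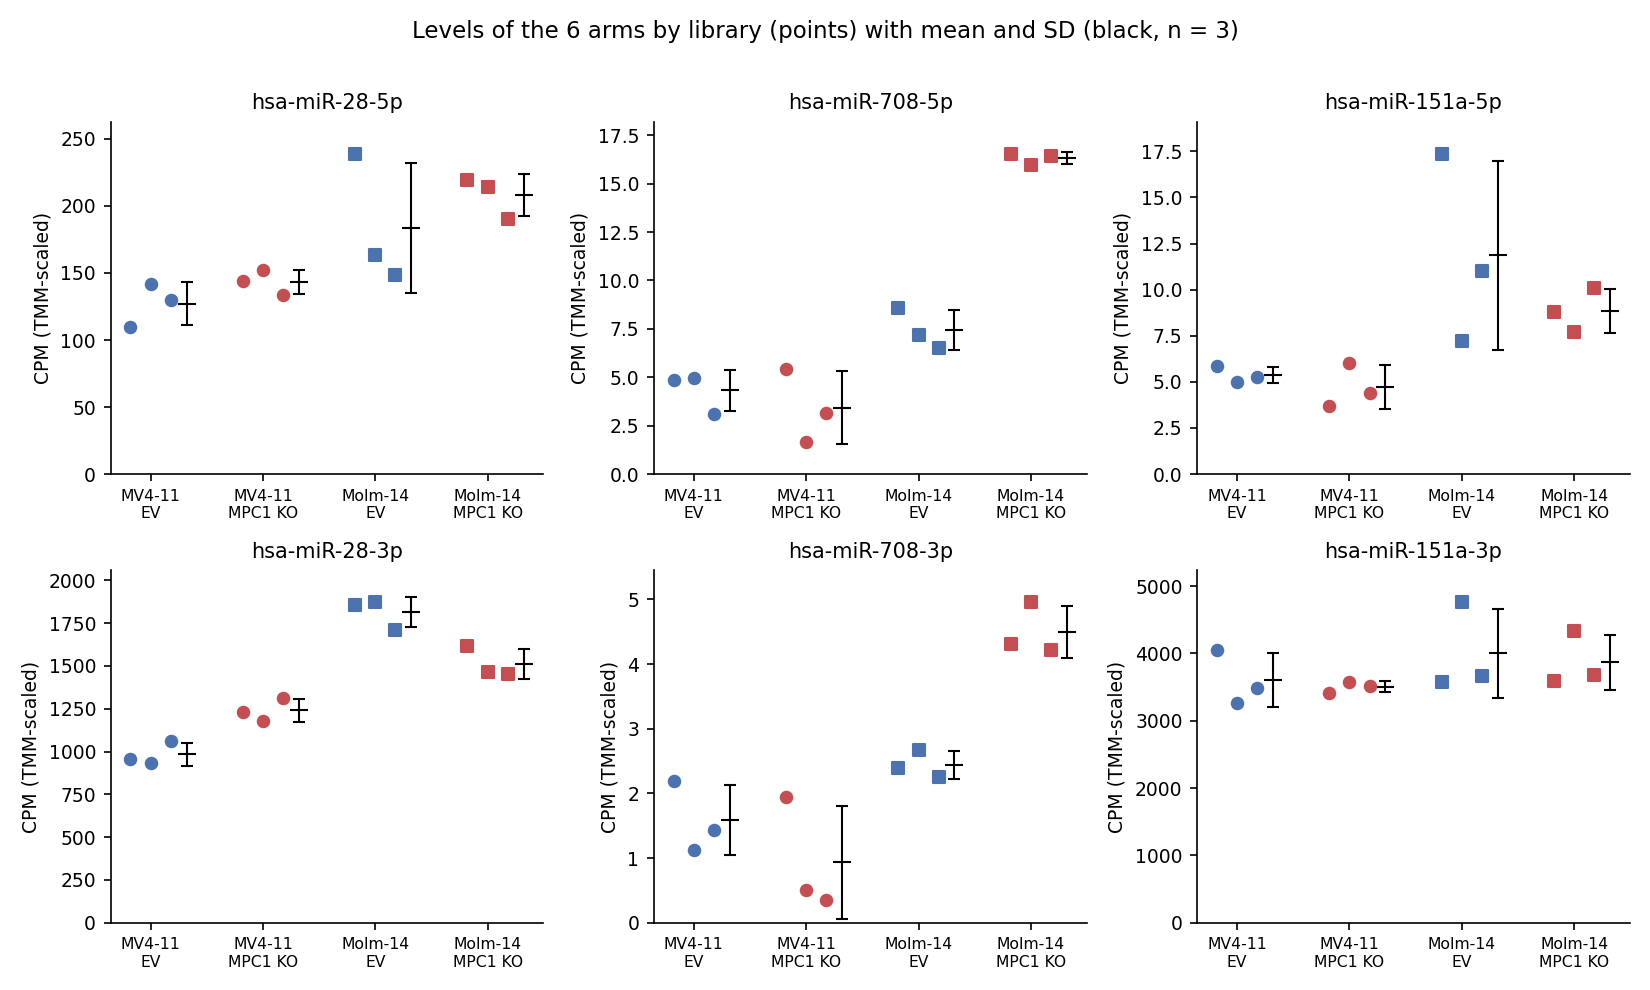
TMM-scaled CPM of each arm (y axis, from 0, on a scale of its own) in the 4 groups (x axis), with points for libraries in order of replicate number, circles for MV4-11, squares for Molm-14, blue for EV and red for MPC1 KO, and black bars for the mean and SD (n = 3). hsa-miR-28-3p in MPC1 KO lay above EV in MV4-11 and below EV in Molm-14, and hsa-miR-708-5p was at 16.0 to 16.5 CPM in Molm-14 MPC1 KO against at most 8.58 CPM elsewhere.

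The baseline difference between the cell lines was asked first, from the EV libraries. These libraries are also the controls of the knockout comparison that put members in view, so the p-values between the EV lines, here and for the arm ratios and the seed sum, are not independent of how the members were chosen. 4 of the 6 arms were higher in Molm-14 EV than in MV4-11 EV by edgeR's quasi-likelihood test (adjusted p under 0.05 over all 659 miRNAs), none was lower, and 2 did not pass. The lines differed widely, with 61.9% of all miRNAs tested passing in either direction and 33.5% passing as higher in Molm-14. As a count of arms passing in either direction, the members' 66.7% is near the first of these shares, so it is not a result about these arms. As a count of arms passing as higher, it stands against the 33.5%. The 6 arms come from 3 hairpins and are not independent, and this excess was not tested. Their median log2 fold change was 0.65 against 0.06 over all 659 miRNAs. All 3 Molm-14 EV libraries lay above all 3 MV4-11 EV libraries for 5 of the 6 arms, and for 34.9% of all miRNAs.

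hsa-miR-28-3p, the dominant arm of miR-28, had 958.0, 930.6 and 1060 CPM in the MV4-11 EV libraries (replicates 1 to 3) and 1856, 1872 and 1712 CPM in Molm-14 EV. The lowest Molm-14 value was well above the highest MV4-11 value. It was 1.84-fold higher in Molm-14 (log2 fold change 0.88, standard error 0.09, adjusted p = 7.95e-09 by edgeR). Of the 6 arms it had the smallest standard error, with at least 4108 counts in every library.

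hsa-miR-28-5p, the seed partner of miR-708-5p, had 109.7, 141.8 and 130.0 CPM in MV4-11 EV and 238.9, 163.3 and 148.5 CPM in Molm-14 EV. The groups did not overlap, but replicate 1 of Molm-14 stood apart from the other Molm-14 libraries. It was 1.45-fold higher in Molm-14 (log2 value 0.54 with a standard error of 0.14, adjusted p = 0.00248 by edgeR). Without that library it was 0.26 and the call was lost (adjusted p = 0.0923 by edgeR).

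hsa-miR-708-5p, the more abundant arm of miR-708, had 4.87, 4.98 and 3.11 CPM in MV4-11 EV and 8.58, 7.21 and 6.52 CPM in Molm-14 EV. Every Molm-14 value was above every MV4-11 value, on 13 to 43 counts per library. The 1.69-fold difference (log2 value 0.76, standard error 0.30) passed with an adjusted p = 0.0299 by edgeR, and it did not pass without replicate 3 of MV4-11 EV (adjusted p = 0.108) or replicate 1 of Molm-14 EV (adjusted p = 0.140), with upper-quartile scaling (adjusted p = 0.0951) or in DESeq2 (adjusted p = 0.0737). hsa-miR-708-3p had 2.19, 1.13 and 1.44 CPM against 2.40, 2.67 and 2.25 CPM. These groups also did not overlap, although the lowest Molm-14 value was only a little above the highest MV4-11 value, and 5 to 18 counts per library lay behind them. Its log2 fold change of 0.52 (standard error 0.44) did not pass (adjusted p = 0.315 by edgeR).

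For miR-151a, the minor arm passed and the major arm did not, and the difference in their ratio did not pass its own test, given further on. hsa-miR-151a-5p had 5.84, 4.98 and 5.27 CPM in MV4-11 EV and 17.4, 7.21 and 11.0 CPM in Molm-14 EV. It was 2.22-fold higher in Molm-14 (log2 fold change 1.15, standard error 0.28, adjusted p = 8.18e-04 by edgeR). The Molm-14 libraries themselves spread from 7.21 to 17.4 CPM, and without replicate 1 the log2 fold change was 0.72 (adjusted p = 0.0335 by edgeR). hsa-miR-151a-3p, the most abundant of the 6, had 4054, 3270 and 3486 CPM against 3577, 4759 and 3670 CPM. The groups overlapped, the log2 value was 0.15 (standard error 0.11, adjusted p = 0.255 by edgeR), and its sign turned under upper-quartile scaling (-0.03), so no direction is given for it.

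hsa-miR-151b is nearly identical to hsa-miR-151a-5p and comes from another hairpin, MIR151B, which lies within EVL on the opposite strand (chr14:100109419-100109514). How reads that match both were counted is not given in the sources used here, so the counts of both are uncertain. hsa-miR-151b had 9 to 28 counts per library, and between the EV lines its log2 value was 0.21 (standard error 0.40, adjusted p = 0.678 by edgeR).

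In the MPC1 KO libraries all 6 arms had every Molm-14 library above every MV4-11 library, as had 36.1% of all miRNAs. The gap between the lines was wider than in EV for the miR-708 arms and narrower for hsa-miR-28-3p. The largest of these differences were those of the miR-708 arms, with log2 fold changes of 2.27 (standard error 0.28) for hsa-miR-708-5p and 2.29 (standard error 0.44) for hsa-miR-708-3p, against 0.28 (standard error 0.09) for hsa-miR-28-3p. These values are given without a test.

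The change with MPC1 KO is likewise a description without a test, because this comparison was used to choose the members. In MV4-11, 1 of the 6 arms, hsa-miR-28-3p, had all MPC1 KO libraries above all EV libraries, none had them all below, and 5 overlapped. A second arm ceased to overlap when certain libraries were left out, on the smaller groups left, and it was not always the same arm. It was hsa-miR-28-5p (above) without replicate 2 of EV or without replicate 3 of MPC1 KO. Without replicate 1 of MPC1 KO it was hsa-miR-708-3p (below), and without replicate 2 of MPC1 KO it was hsa-miR-151a-5p (below). Of all 659 miRNAs, 10.3% lay wholly above and 7.13% wholly below. In Molm-14, 2 arms lay wholly above (hsa-miR-708-5p and hsa-miR-708-3p), 1 wholly below (hsa-miR-28-3p) and 3 overlapped, with 12.3% and 14.9% as the shares over all miRNAs. Under upper-quartile scaling the arm below no longer stood apart, and a further arm did without replicate 1 of EV (hsa-miR-28-5p, above) or without replicate 2 of EV (hsa-miR-151a-5p, below). The median log2 fold change of the members was -0.12 in MV4-11, against -0.0035 over all miRNAs, and 0.065 in Molm-14, against -0.013.

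hsa-miR-28-3p had 1231, 1180 and 1314 CPM in MV4-11 MPC1 KO, above the 930.6 to 1060 CPM of its EV libraries. In Molm-14 MPC1 KO it had 1614, 1467 and 1453 CPM, below the 1712 to 1872 CPM of its EV libraries. Molm-14 stayed above MV4-11, with a log2 difference between the lines of 0.88 in EV and 0.28 in MPC1 KO. The log2 fold changes were 0.34 (standard error 0.09) and -0.26 (standard error 0.09), and their difference, Molm-14 minus MV4-11, was -0.60 (standard error 0.13). Under upper-quartile scaling the Molm-14 libraries of MPC1 KO and EV overlapped (log2 fold change -0.19), and those of MV4-11 did not (0.22).

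hsa-miR-28-5p, cut from the same hairpin, did not follow its partner in Molm-14. It had 143.8, 151.9 and 133.7 CPM in MV4-11 MPC1 KO and 219.2, 214.4 and 190.2 CPM in Molm-14 MPC1 KO. Both ranges overlapped those of EV. Its log2 fold changes were 0.17 and 0.18 (standard error 0.14 in each line), and without replicate 1 of Molm-14 EV the second was 0.43.

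hsa-miR-708-5p had 16.5, 16.0 and 16.4 CPM in Molm-14 MPC1 KO, from 92, 87 and 70 counts. These libraries lay close together and above every other library of the study, the nearest of which, replicate 1 of Molm-14 EV, had 8.58 CPM. The log2 fold change was 1.12 (standard error 0.26), or 2.18-fold. In MV4-11 MPC1 KO it had 5.44, 1.67 and 3.18 CPM, from 28, 10 and 18 counts. These overlapped EV, and the log2 fold change was -0.38 (standard error 0.32).

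hsa-miR-708-3p showed the order of its partner at lower counts. It had 4.32, 4.95 and 4.22 CPM in Molm-14 MPC1 KO, from 24, 27 and 18 counts, all above EV, with a log2 fold change of 0.89 (standard error 0.38), or 1.85-fold. In MV4-11 MPC1 KO it had 1.94, 0.502 and 0.353 CPM, from 10, 3 and 2 counts. Replicate 1 was the highest of these for both arms of miR-708. The MV4-11 log2 fold change of hsa-miR-708-3p was -0.89 (standard error 0.50) and lay between -1.91 without that library and -0.51 without replicate 1 of EV. That of hsa-miR-708-5p lay between -0.86 without replicate 1 of MPC1 KO and -0.05 without replicate 2, so neither size is well set. The difference between the lines' changes was 1.51 (standard error 0.41) for the 5p arm and 1.77 (standard error 0.63) for the 3p arm. As each library was left out they lay between 1.18 and 1.99 and between 1.41 and 2.80, with both highest values without replicate 1 of MV4-11 MPC1 KO.

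The miR-151a arms overlapped between MPC1 KO and EV in both lines. hsa-miR-151a-5p had 3.69, 6.02 and 4.41 CPM in MV4-11 MPC1 KO and 8.81, 7.70 and 10.1 CPM in Molm-14 MPC1 KO. Its log2 fold changes were -0.19 (standard error 0.30) and -0.45 (standard error 0.26), and the second was -0.05 without replicate 1 of Molm-14 EV. hsa-miR-151a-3p had 3412, 3577 and 3523 CPM in MV4-11 MPC1 KO and 3593, 4338 and 3682 CPM in Molm-14 MPC1 KO. Its log2 fold changes were -0.04 and -0.05 (standard error 0.11 in each line), the smallest of the 6 arms in size.

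**Figure D2:**
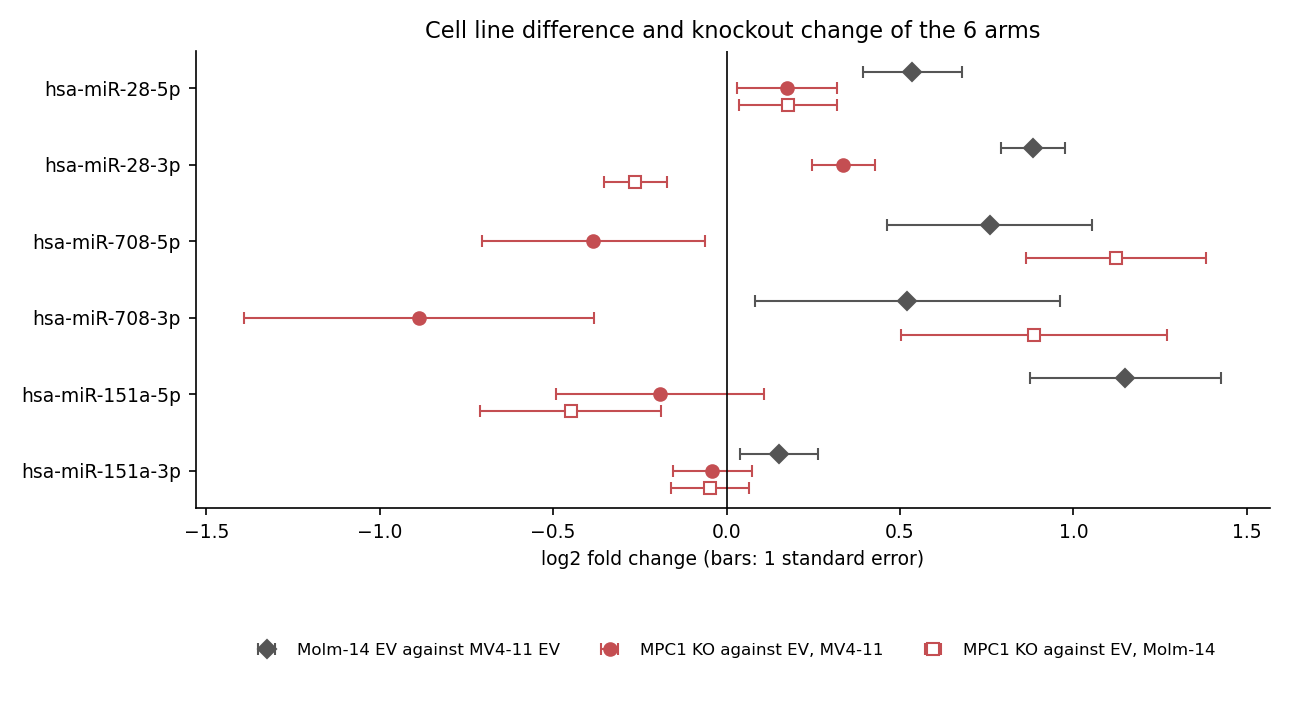
log2 fold change (x axis) of the 6 arms (y axis), with bars of 1 standard error from the edgeR fit to all 12 libraries, for Molm-14 EV against MV4-11 EV (grey diamonds) and for MPC1 KO against EV in MV4-11 (filled circles) and in Molm-14 (open squares). The knockout values of hsa-miR-28-3p (0.34 and -0.26) and of both miR-708 arms lie on opposite sides of 0 in the 2 lines, while those of hsa-miR-151a-3p lie at -0.04 and -0.05. The 3 comparisons share EV libraries.

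The ratio of the arms within a library does not depend on how libraries are scaled, so it was compared as well. miR-28 and miR-151a were read mainly from the 3p arm and miR-708 mainly from the 5p arm, in all 12 libraries. In EV, the 3p share of miR-28 was 88.5% ± 1.55 (SD, n = 3) in MV4-11 and 90.9% ± 1.96 in Molm-14, and that of miR-151a was 99.9% ± 0.00443 and 99.7% ± 0.166. For miR-708 the 3p share was 27.0% ± 7.39 and 24.8% ± 2.70. Differences of the mean log2(5p/3p), Molm-14 EV minus MV4-11 EV, were -0.38 for miR-28, 0.15 for miR-708 and 0.90 for miR-151a. None passed an exact two-sided permutation test (p = 0.3, 0.6 and 0.3, adjusted over the 3 hairpins to 0.45, 0.6 and 0.45), in which 3 libraries against 3 cannot go below 0.1. Single libraries moved these values. Without replicate 1 of Molm-14 EV they were -0.57 for miR-28, 0.03 for miR-708 and 0.51 for miR-151a. For miR-708 the value was -0.02 without replicate 3 of MV4-11 EV and 0.47 without replicate 2, so its sign is not set.

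For miR-28 the 3p share by library was 88.6%, 92.0% and 92.0% in Molm-14 EV and 88.0%, 87.2% and 88.4% in Molm-14 MPC1 KO. All knockout libraries lay below all EV libraries, but replicate 1 of EV (88.6%, exact binomial 95% interval 88.0% to 89.2%) had an interval that met those of 2 of the 3 knockout libraries, and the other EV libraries had none that did. The mean log2(5p/3p) was 0.47 higher in MPC1 KO, and between 0.38 and 0.66 higher as each library was left out. In MV4-11 the 3p shares were 89.7%, 86.8% and 89.1% in EV and 89.5%, 88.6% and 90.8% in MPC1 KO, and they overlapped. Such intervals cover counting error only. The knockout change of the ratio was not tested, and how often the arm ratios of other hairpins separate in this way was not counted.

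For miR-708 the arm ratio is far less certain, since a library held between 13 and 116 counts of the hairpin. The 3p share was 23.1% in replicate 2 of MV4-11 MPC1 KO with an exact binomial 95% interval from 5.04% to 53.8%, and 20.7% in replicate 1 of Molm-14 MPC1 KO with an interval from 13.7% to 29.2%. The Molm-14 MPC1 KO shares (20.5% to 23.7%) overlapped those of EV (21.8% to 27.0%), while the level of both arms did not. For miR-151a the 3p share was lowest in replicate 1 of Molm-14 EV, at 99.5% (exact binomial 95% interval 99.4% to 99.6%), against 99.7% or more in the other libraries.

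**Figure D3:**
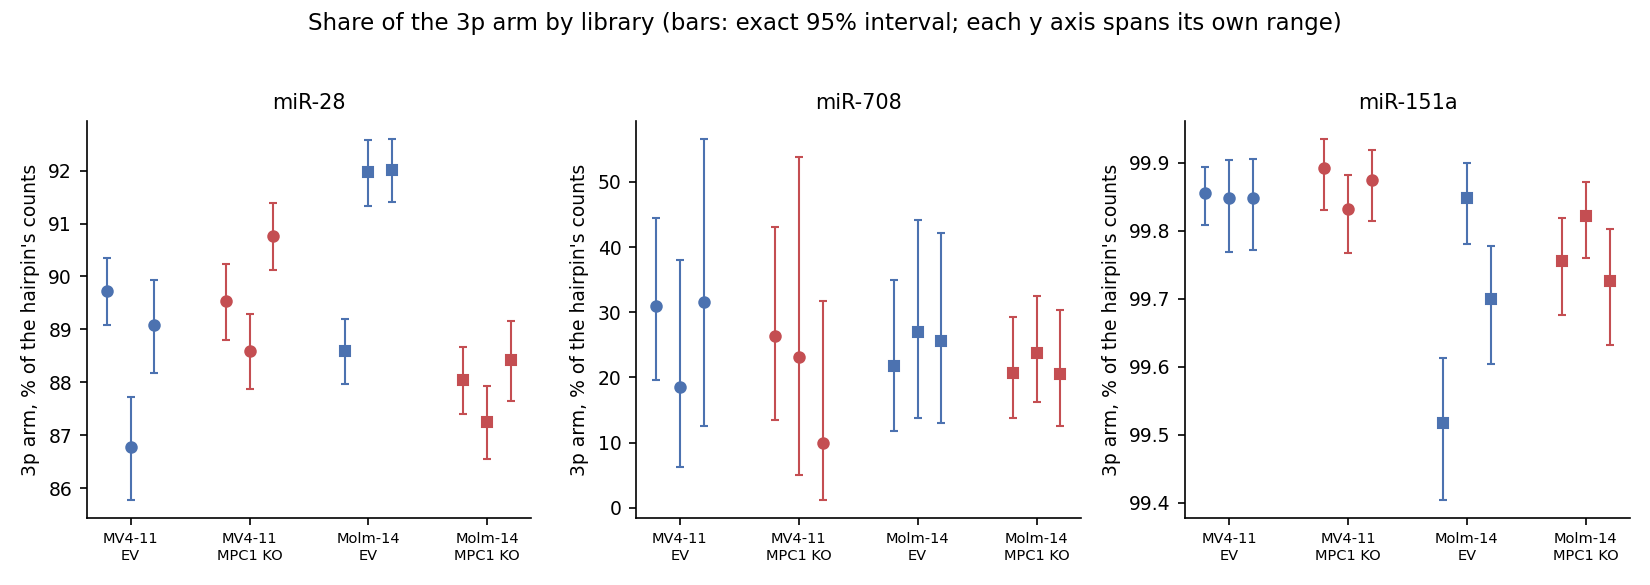
Share of a hairpin's counts that came from its 3p arm (y axis, in %, each panel over its own range and not from 0) by library in the 4 groups (x axis), with exact binomial 95% intervals of counting error, circles for MV4-11, squares for Molm-14, blue for EV and red for MPC1 KO. Replicate 1 of Molm-14 EV lies apart from the other Molm-14 EV libraries for miR-28 (88.6% against 92.0%) and for miR-151a (99.5%), and the miR-708 intervals are wide, up to 5.04% to 53.8%.

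**Figure D4:**
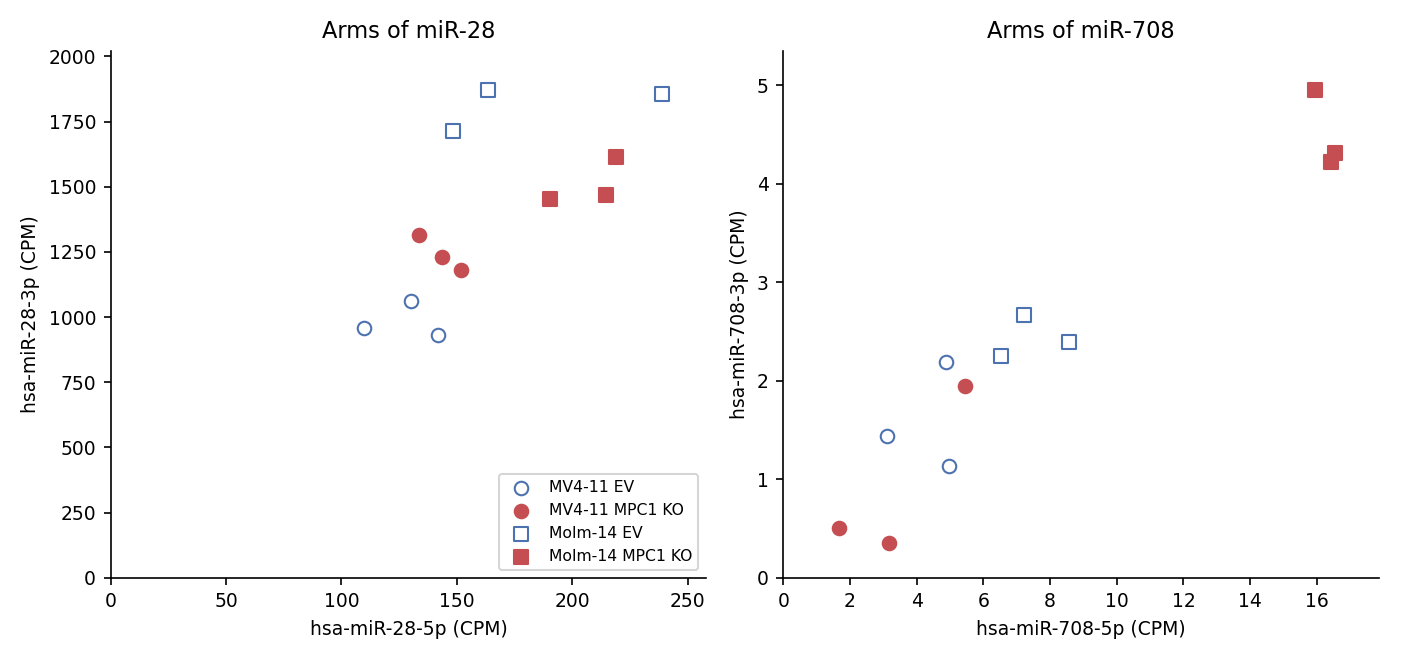
CPM of the 3p arm (y axis) against the 5p arm (x axis) for miR-28 (left) and miR-708 (right), with 1 point per library, circles for MV4-11, squares for Molm-14, open for EV and filled for MPC1 KO. In Molm-14, the MPC1 KO libraries lie lower than EV on the 3p axis of miR-28 (1453 to 1614 against 1712 to 1872 CPM), and higher than EV on both axes of miR-708.

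The miRNAs that hold the seed AGGAGCU were summed, since they can reach the same seed sites. By library the sum of hsa-miR-28-5p, hsa-miR-708-5p and hsa-miR-3139 was 115.0, 147.5 and 133.6 CPM in MV4-11 EV and 247.9, 170.8 and 155.2 CPM in Molm-14 EV. The groups did not overlap, the sum was 1.43-fold higher in Molm-14 EV (log2 difference 0.51), and p was 0.1 by an exact two-sided permutation test, the smallest that this design allows. The log2 difference was 0.31 without replicate 1 of Molm-14 EV and 0.34 under upper-quartile scaling. In MPC1 KO the sum was 146.8 ± 8.30 CPM (SD, n = 3) in MV4-11 and 224.9 ± 15.7 CPM in Molm-14. hsa-miR-28-5p gave at least 91.8% of it in every library. The share of hsa-miR-708-5p was 2.33% to 4.23% in MV4-11 EV, 1.09% to 3.64% in MV4-11 MPC1 KO, 3.46% to 4.22% in Molm-14 EV and 6.89% to 7.93% in Molm-14 MPC1 KO. hsa-miR-3139, from a hairpin in an intron of GAB1, had 0 to 6 counts per library, too few to be tested.

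The miRNAs whose pattern was most like each arm were found by Pearson's r of log2(CPM + 0.5) over the 12 libraries, which fall into 4 groups, so r mostly follows the group means and is given as a description. For hsa-miR-28-3p they were hsa-miR-629-5p (r = 0.977) and hsa-miR-92b-3p (r = 0.968). For hsa-miR-708-5p they were hsa-miR-19a-3p (r = 0.909) and hsa-miR-101-3p (r = 0.906), and for hsa-miR-708-3p they were hsa-miR-19a-3p (r = 0.894) and hsa-miR-15a-3p (r = 0.887). The other arms had hsa-miR-424-3p (r = 0.877) and hsa-miR-3942-5p (r = 0.874) for hsa-miR-28-5p, hsa-miR-18a-3p (r = 0.904) and hsa-miR-1296-3p (r = 0.878) for hsa-miR-151a-5p, and hsa-miR-7111-3p (r = 0.846) and hsa-miR-548ar-3p (r = 0.838) for hsa-miR-151a-3p. Among the members, r was 0.919 between the arms of miR-708, 0.714 between those of miR-28 and 0.188 between those of miR-151a.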

How the data were processed

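Small RNA was isolated with the Qiagen miRNeasy kit and libraries were made with the NEBNext small RNA kit. The authors deposited raw counts, whole numbers of reads per mature miRNA and library, with no normalization. The submitters' processing notes name GRCh38, STAR 2.5.2 and featureCounts 1.5.1. How reads matching several miRNAs were counted is not given in the sources used here. Libraries were grouped by the cell line and genotype in their labels.

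edgeR 4.0.16 (R 4.3.3) was run on the counts of all 12 libraries with filterByExpr (minimum count 10), TMM factors (0.940 to 1.08) and 1 mean per group, by its robust quasi-likelihood fit. Benjamini-Hochberg adjustment of p ran over 659 miRNAs, with a threshold of 0.05. The fit was tested on simulated data. Arm ratios used counts plus 0.5, with exact permutation tests in scipy 1.17.1. Intervals are exact Clopper-Pearson. At 3870104 to 8683456 counts per library, the miR-708 arms rest on 2 to 92 counts each.

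The members, lists and comparisons were chosen with earlier results of these data known. The knockout comparisons chose members, so they were not tested. The rule for other named miRNAs took those sharing a member's seed, hsa-miR-151b and those within 50 kb of a member hairpin. It also took the 2 most alike in pattern to each member, with the members themselves left out of that search. Alternatives were RLE, upper-quartile and total-count scaling, other filters, DESeq2 1.42.0, limma-voom (limma 3.58.1), fits of the compared libraries alone, a replicate block, and leaving out each library. Hairpin positions came from GENCODE release 44.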

Additional observations from a re-analysis of the deposited data

Results flagged for a closer look

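hsa-miR-28-3p was singled out because its knockout values went in opposite directions in the cell lines. All 3 MV4-11 MPC1 KO libraries lay above EV and all 3 Molm-14 MPC1 KO libraries lay below EV, and the Molm-14 log2 fold change minus that of MV4-11 came to -0.60 (standard error 0.13). The difference was not tested, because the comparison had been used to choose the members. Of all 659 miRNAs, 10.3% lay wholly above EV in MV4-11 and 14.9% wholly below EV in Molm-14. How many did both was not counted. The opposite directions are not particular to hsa-miR-28-3p. hsa-miR-92b-3p, named above for its like pattern, had log2 fold changes of 0.28 in MV4-11 and -0.28 in Molm-14. Over the alternatives the MV4-11 value of hsa-miR-28-3p lay between 0.22 and 0.40 and its Molm-14 value between -0.27 and -0.19. Under upper-quartile scaling the Molm-14 MPC1 KO and EV libraries overlapped, and the difference between the lines was -0.41.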

How the results depend on the processing

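The count of arms that passed as higher in Molm-14 EV was 4, and 2 where a mean of at least 100 counts was required, since the miR-708 arms and hsa-miR-151a-5p were then not tested. It lay between 2 and 4 as each library was left out, with 2 without replicate 1 of Molm-14 EV, where hsa-miR-28-5p (adjusted p = 0.0923) and hsa-miR-708-5p (log2 fold change 0.60, adjusted p = 0.140, edgeR) did not pass. hsa-miR-708-5p also did not pass under upper-quartile scaling (0.58, adjusted p = 0.0951), in DESeq2 (0.73, adjusted p = 0.0737) or without replicate 3 of MV4-11 EV (0.59, adjusted p = 0.108). Over all miRNAs, 408 passed between the EV lines, 481 with no filter and 212 with the stricter one. The fitted knockout change was more positive in Molm-14 than in MV4-11 for 3 arms. It was so for 2 with total-count scaling, for 4 with upper-quartile scaling or in DESeq2, and for 2 to 4 as each library was left out. With the stricter filter it was so for 0, as the miR-708 arms were left out and hsa-miR-28-5p went from 0.0039 to -0.0028. The 0.0039 had a standard error of 0.20, so the sign for that arm is not set. In MV4-11, 1 to 2 arms did not overlap between MPC1 KO and EV as each library was left out, with 2 without replicate 2 of EV or without any 1 of the MPC1 KO libraries. The second arm was not the same in each of these. In Molm-14, 3 arms did not overlap, 2 with upper-quartile scaling, and 3 to 4 as each library was left out. Upper-quartile scaling moved the median log2 fold change over all miRNAs from 0.06 to -0.12 between the EV lines.

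Samples with the same replicate number did not deviate together (correlations from -0.134 to 0.123), so the numbers were not taken to pair them. With the replicate number as a block, 4 arms passed between the EV lines, among them hsa-miR-708-5p (0.78, adjusted p = 0.0248, edgeR), and 3 arms had the more positive knockout change in Molm-14. Leaving out libraries from the knockout change of the arm ratio was added after seeing the data. The block cannot change the mean difference of the arm ratios or of the summed seed level (0.51).

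Depth limits the miR-708 arms and hsa-miR-151a-5p, whose counts were at most 92 per library, and the arm ratio of miR-708 most of all. The causes of the differences between settings were not tested.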
